A study of Mus musculus with 11 samples.

Results

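Lysosomes are acidic organelles in which proteins, lipids, glycans and glycosaminoglycans are degraded. Soluble hydrolases are made at the endoplasmic reticulum and carried to the lysosome by mannose 6-phosphate receptors or sortilin. They then work inside a membrane built of heavily glycosylated proteins, a proton pump and transporters. In liver, hepatocytes and Kupffer cells both carry many lysosomes, and macrophages hold a particularly large complement of cathepsins, the lysosomal proteases. Transcription factor EB (*Tfeb*) can raise many lysosomal genes together through E-boxes near their start sites. The genes described here are 37 lysosomal genes, namely cathepsins, glycosidases, sulfatases, lipid hydrolases, a hydrolase activator, sterol carriers, membrane proteins and *Tfeb*. They were chosen by gene symbol, and all 37 were present among the 46603 genes of the deposited table. Of the members, 7 are cathepsins that are abundant in macrophages, 21 are hydrolases expressed in most cells, and 9 are not hydrolases.

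Whole-liver RNA was sequenced from 11 male mice. All carried the *ob/ob* mutation of *Lep* and so lacked leptin (strain B6.V-Lep ob/JRj), were 5 to 6 weeks old when the AMLN diet began, and ate this diet of fat, fructose and cholesterol for 15 weeks before treatment and during it. For 8 weeks 4 mice received INT-767 by oral gavage once a day at 10 mg/kg, and 7 mice received the carboxymethyl cellulose vehicle. INT-767 is a synthetic bile acid derivative that is an agonist of both main bile acid receptors, the nuclear receptor FXR and the membrane receptor TGR5. Every mouse in both groups carried the mutation and the diet, and mice had been selected by liver biopsy for steatosis and fibrosis, so that no lean, chow-fed or untreated liver is part of the comparison. The question was how whole-liver expression of lysosomal genes differed between INT-767-treated and vehicle mice, and whether macrophage-rich cathepsins differed from broadly expressed hydrolases. In bulk tissue fewer cells of a type and less RNA per cell cannot be told apart.

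The deposited values were reads counted on each gene. Their total was 7966963 to 15295230 per vehicle mouse (median 10878327, n = 7) and 7381211 to 16022459 per INT-767 mouse (n = 4). Levels are given as CPM, the counts of a gene relative to the library size of the mouse after scaling by edgeR's TMM factors. All 37 members passed edgeR's filter on low counts, and the lowest count of any member in any mouse was 35, so that depth did not limit which members could be tested. Differences are log2 fold changes of INT-767 over vehicle from edgeR's quasi-likelihood test across 13880 genes. A gene is called higher or lower when its Benjamini-Hochberg adjusted *p* over all 13880 genes is under 0.05. The liver identity of the samples was visible in *Alb*, the albumin gene, at 43057 ± 4297 CPM in vehicle mice (mean ± SD, n = 7), and all 8 hepatocyte markers were detected in every mouse.

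Members differed widely in level. Per kilobase of the longest protein-coding transcript, the highest level in vehicle mice was that of *Lamp1*, the main structural glycoprotein of the lysosomal membrane, at 389 ± 63.9 CPM per kilobase (mean ± SD, n = 7). It was followed by *Psap*, the precursor of the saposins that present sphingolipids to hydrolases, at 346 ± 38.1, and by the aspartic protease cathepsin D (*Ctsd*) at 305 ± 58.1. The SDs of these 3 neighbours overlapped. *Lamp2*, *Ctsb*, *Lipa*, *Ctsz*, *Ctsh*, *Ctsl* and *Ctss* formed the next group, between 172 and 114 CPM per kilobase. The lowest were *Gla*, alpha-galactosidase A, at 2.79 ± 0.395, *Galc*, galactosylceramidase, at 3.102 ± 0.485, and *Tfeb* at 4.59 ± 0.638. The highest member was 139.6-fold above the lowest on this scale.

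**Figure D1:**
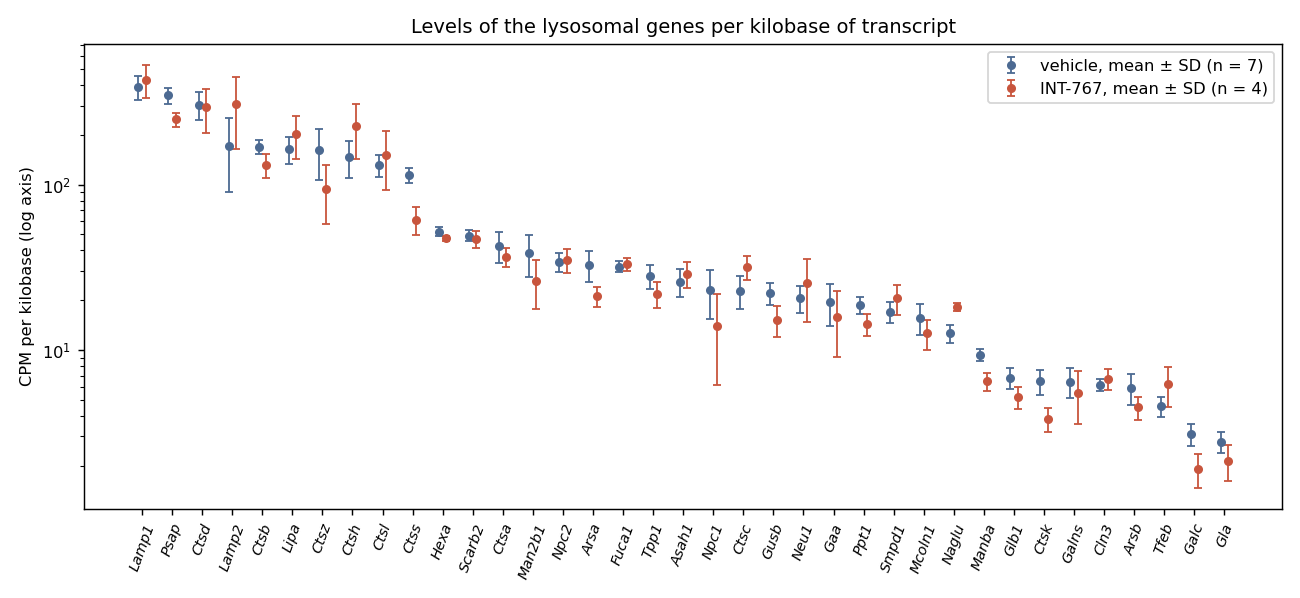
Level of each of the 37 lysosomal genes in CPM per kilobase of transcript (log axis), genes ordered by the vehicle mean. Points are means and bars SDs of 7 vehicle (blue) and 4 INT-767 (red) mice, and *Lamp1*, *Psap* and *Ctsd* lead while *Galc* and *Gla* come last.

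The regions in front of the genes were searched for sequences that transcription factors are known to bind. RefSeq windows on GRCm38.p6, from 250 bases before to 50 bases after the start site, were given for 32 of the 37 members. *Ctsb*, *Ctsh*, *Asah1*, *Galns* and *Npc1* had no window here. The palindrome TCACGTGA, the core of the element bound by TFEB, was present in 5 of the 32 members (15.6%), in 1.12% of all 27025 genes with a window and in 2.09% of the tested genes with one. The E-box CACGTG, which this palindrome contains, was present in 11 members (34.4%) against 8.09% of all genes and 11.5% of the tested genes. The inverted repeat with a spacer of 1 base (IR-1) that FXR is known to bind was present in its consensus form in none of the 32 members and in 0.0481% of all genes. GAGGAAGT, a core bound by the myeloid factor PU.1 and searched on both strands, was present in 4 members (12.5%), *Ctsc*, *Ctss*, *Gla* and *Gusb*, against 3.69% of all genes and 3.74% of the tested genes. All 3 other motifs read the same on both strands. Shown here are the 3 called members with a match and 2 abundant genes rich in E-boxes, 5′ to 3′ along the gene, with matches in capitals. Their regions are chr3:95526536-95526835 (plus strand) for *Ctss*, chr11:101069844-101070143 (plus strand) for *Naglu*, chr15:89477375-89477674 (minus strand) for *Arsa*, chr7:142387778-142388077 (minus strand) for *Ctsd* and chr8:13158911-13159210 (plus strand) for *Lamp1*.
Ctss: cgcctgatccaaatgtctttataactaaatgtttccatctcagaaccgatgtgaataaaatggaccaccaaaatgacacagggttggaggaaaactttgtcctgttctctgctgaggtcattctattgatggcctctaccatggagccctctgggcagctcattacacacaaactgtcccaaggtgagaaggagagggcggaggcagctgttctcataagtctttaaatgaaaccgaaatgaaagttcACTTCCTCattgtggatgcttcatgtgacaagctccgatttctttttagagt
Naglu: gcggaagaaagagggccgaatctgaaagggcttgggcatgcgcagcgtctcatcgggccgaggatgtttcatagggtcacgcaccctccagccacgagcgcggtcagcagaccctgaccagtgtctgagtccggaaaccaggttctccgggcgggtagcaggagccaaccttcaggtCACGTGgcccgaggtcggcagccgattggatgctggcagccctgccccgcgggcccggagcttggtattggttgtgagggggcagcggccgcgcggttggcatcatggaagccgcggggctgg
Arsa: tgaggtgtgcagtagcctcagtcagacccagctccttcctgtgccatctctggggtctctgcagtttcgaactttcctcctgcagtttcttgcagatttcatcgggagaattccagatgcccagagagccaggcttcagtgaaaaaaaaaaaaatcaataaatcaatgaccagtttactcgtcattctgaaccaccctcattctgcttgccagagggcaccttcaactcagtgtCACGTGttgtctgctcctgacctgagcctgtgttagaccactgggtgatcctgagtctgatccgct
Ctsd: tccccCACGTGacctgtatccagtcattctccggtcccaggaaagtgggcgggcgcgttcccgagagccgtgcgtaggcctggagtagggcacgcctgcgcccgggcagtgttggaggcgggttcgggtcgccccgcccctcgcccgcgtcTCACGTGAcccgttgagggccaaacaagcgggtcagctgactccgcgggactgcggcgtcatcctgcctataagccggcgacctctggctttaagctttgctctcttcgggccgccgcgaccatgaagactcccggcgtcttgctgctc
Lamp1: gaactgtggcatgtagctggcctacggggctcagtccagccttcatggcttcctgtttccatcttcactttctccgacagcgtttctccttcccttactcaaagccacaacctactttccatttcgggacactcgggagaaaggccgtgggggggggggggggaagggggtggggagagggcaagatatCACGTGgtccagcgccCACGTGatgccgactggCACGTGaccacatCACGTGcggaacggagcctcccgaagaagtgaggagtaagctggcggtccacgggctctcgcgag

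The *Ctss* window held ACTTCCTC, the reverse complement of GAGGAAGT, close to the start site, and no E-box. *Naglu* and *Arsa*, which differed in opposite directions between the groups, each held 1 E-box, whose first base lay at -73 and -16 from the start site. *Ctsd* held a plain E-box and the full palindrome, with first E-box bases at -245 and -98. *Lamp1* held 4 E-boxes in a row, at -61, -45, -28 and -15, without the full palindrome. The full palindrome was otherwise found in *Ctsa*, *Gla*, *Cln3* and *Mcoln1*. None of the 5 members that carry it was called with all mice, where 9.72% of all tested genes were. With 5 genes this count cannot be told from that share, and *Mcoln1* was called lower without vehicle mice 1 and 7. *Ctsk*, *Galc* and *Manba* held none of these motifs. A match describes letters in the window, and binding was not measured.

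INT-767-treated livers expressed less of 5 lysosomal genes and more of 1. *Ctss* (cathepsin S), *Ctsk* (cathepsin K), *Galc*, *Manba* (beta-mannosidase) and *Arsa* (arylsulfatase A) fell, and *Naglu* (alpha-N-acetylglucosaminidase) rose. These are 13.5% of the 37 members lower and 2.70% higher, where 4.68% of all 13880 tested genes were called lower and 5.04% higher. In either direction 6 members (16.2%) were called, against 9.72% of all tested genes. The other 31 members were not called, with adjusted *p* from 0.0521 to 0.86 (edgeR). No member moved by more than 1 on the log2 scale. The log2 fold change was below 0 for 23 members (62.2%), against 50.6% of all tested genes, and the median was -0.24 against -0.01. At an unadjusted *p* under 0.05, 11 members were lower and 5 higher, where 15.6% and 17.4% of all genes were. The 4 INT-767 mice lay entirely below the 7 vehicle mice for *Ctss*, *Manba*, *Arsa* and *Psap* and entirely above them for *Naglu*, a separation seen in 3.65% (lower) and 3.87% (higher) of all tested genes. With scaling by library size alone the median of all genes was -0.22 and that of the members -0.44, and *Asah1*, *Fuca1*, *Npc2*, *Lamp1* and *Cln3*, all uncalled, then had log2 fold changes below instead of above 0.

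**Figure D2:**
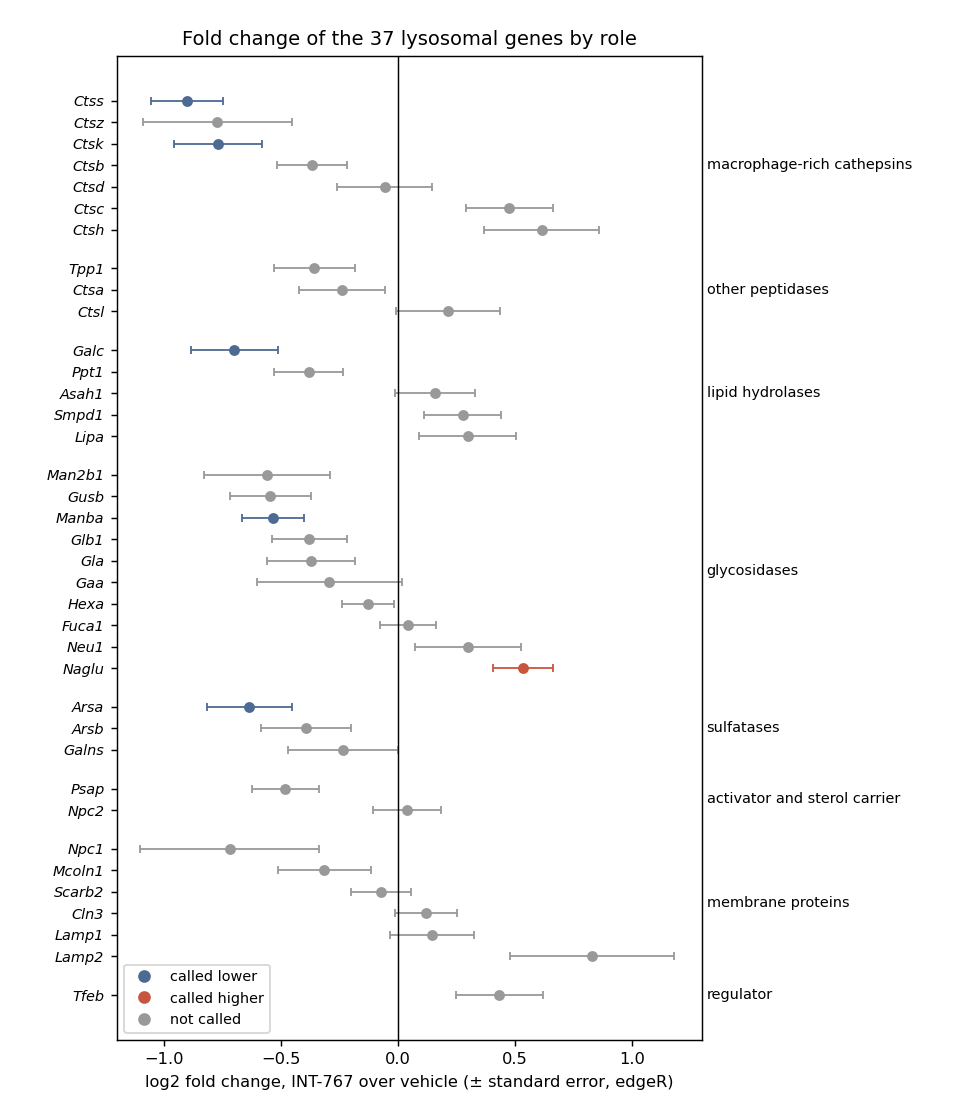
Log2 fold change of INT-767 over vehicle for each of the 37 lysosomal genes, grouped by role, with bars of 1 standard error from edgeR. Blue points were called lower, the red point (*Naglu*) higher, and grey points were not called. The macrophage-rich cathepsins spread from -0.90 (*Ctss*) to 0.61 (*Ctsh*).

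The macrophage-rich cathepsins did not move as a block. Of 7, 2 were lower (*Ctss* and *Ctsk*) and none was higher by edgeR (2 were higher at an unadjusted *p* under 0.05, and none by DESeq2 or limma-voom), and the median log2 fold change was -0.37. DESeq2 also called *Ctsb* lower, and limma-voom with sample weights *Ctsb* and *Ctsz*. *Ctss* encodes a cysteine protease that antigen-presenting cells use to trim the invariant chain of MHC class II. It lies on chromosome 3 (chr3:95526786-95556403, GRCm38, plus strand, 8 exons). Its level was 129 CPM in the lowest vehicle mouse, 157 in the median and 178 in the highest, and 102, 65.4, 87.4 and 76.96 CPM in INT-767 mice 1 to 4. Every treated mouse was below every vehicle mouse. The log2 fold change was -0.90 (SE 0.15, adjusted *p* = 0.00573), the largest fall among the members.

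*Ctsk*, a collagen-degrading cysteine protease best known from osteoclasts, is the neighbour of *Ctss* on the same strand (chr3:95499256-95509362), and 17424 bases separate the end of one from the start of the other. Its level was 6.55 CPM in the lowest vehicle mouse, 10.7 in the median and 11.2 in the highest, and 5.02, 4.84, 6.62 and 6.52 CPM in INT-767 mice 1 to 4. The groups overlapped only through vehicle mouse 3, the lowest of its group. *Ctsk* fell by 0.77 on the log2 scale (SE 0.19, adjusted *p* = 0.0274, edgeR). Its level per kilobase in vehicle mice, 6.47 ± 1.11, was far under that of *Ctss*, 114 ± 12.4 CPM per kilobase.

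The other macrophage-rich cathepsins were not called by edgeR with all mice, while *Ctsz* was called lower and *Ctsc* and *Ctsh* higher without vehicle mouse 1. *Ctsz*, a carboxypeptidase, had a fold change as large as that of *Ctsk* with a wider spread, -0.77 (SE 0.32, adjusted *p* = 0.118). *Ctsb*, the most abundant cathepsin of the group in CPM, had -0.37 (SE 0.15, adjusted *p* = 0.113). In *Ctsb*, 12.8% of exon bases overlap the opposite-strand gene *Fdft1*, squalene synthase, which rose by 0.77 (adjusted *p* = 0.00737, edgeR). The strand setting of the counting is not given, so that reads of such a pair may be mixed. *Ctsd* had a log2 fold change of -0.06 (SE 0.20), with 541 CPM in the lowest vehicle mouse, 603 in the median and 837 in the highest, and 501, 582, 510.2 and 899.95 CPM in INT-767 mice 1 to 4. INT-767 mice 1 and 3 lay below the vehicle range and mouse 4 above it. Its annotation shares 34.4% of exon bases with *Gm49369*, a model on the same strand. *Ctsc*, which activates granule proteases of myeloid cells, had 0.48 (SE 0.19, adjusted *p* = 0.105), and *Ctsh*, an aminopeptidase, had 0.61 (SE 0.24, adjusted *p* = 0.11).

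**Figure D3:**
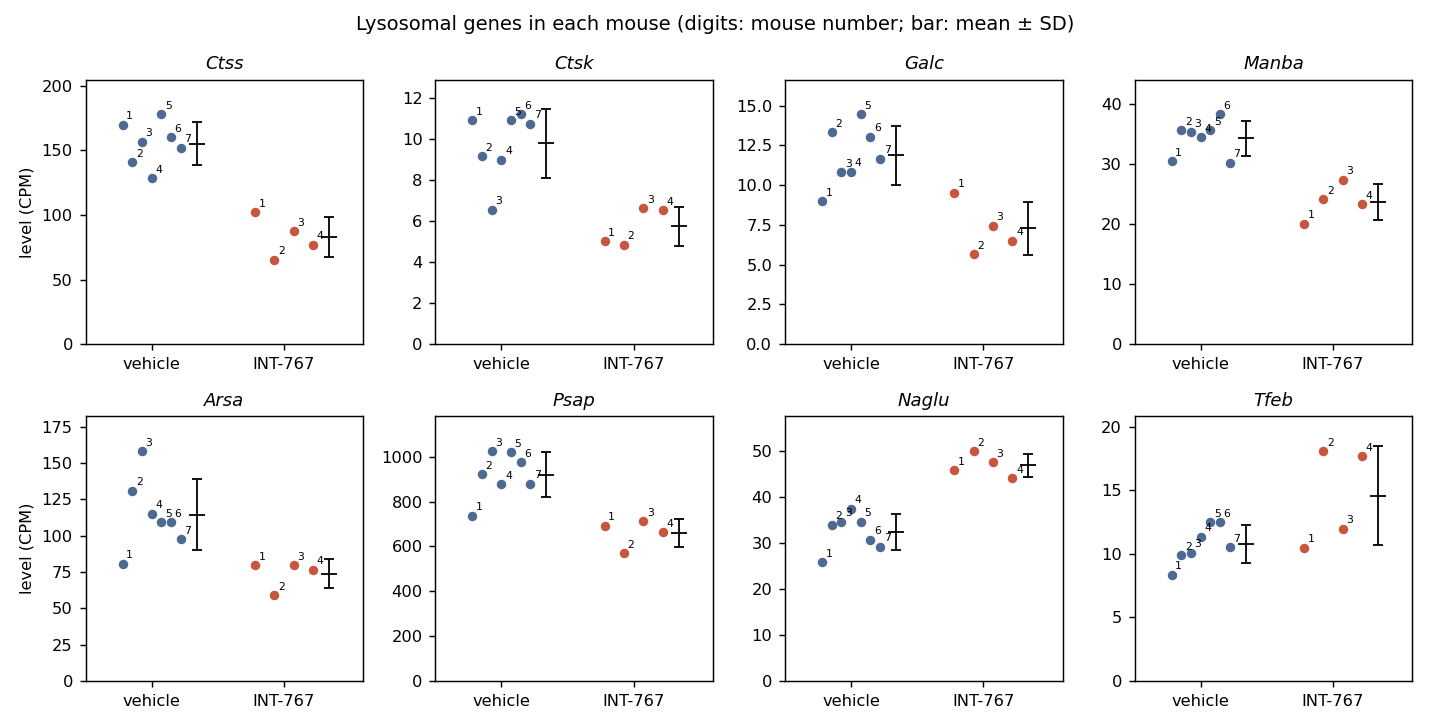
Level in CPM of 8 lysosomal genes in each of 7 vehicle (blue) and 4 INT-767 (red) mice, on axes that start at 0, with the mouse number beside each point and the mean ± SD as a bar. *Ctss*, *Manba*, *Arsa* and *Psap* are lower in every INT-767 mouse than in any vehicle mouse, *Naglu* is higher in every INT-767 mouse, and the groups of *Ctsk*, *Galc* and *Tfeb* overlap.

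Among the 21 broadly expressed hydrolases 3 were lower, 1 was higher, and the median log2 fold change was -0.29. The shares called, 2 of 7 cathepsins and 4 of 21 hydrolases, rest on few genes, and the difference between the lists was not tested. As a description, the mean log2 CPM of the 7 cathepsins exceeded that of the 21 hydrolases by 1.46 ± 0.20 in vehicle mice (SD, n = 7) and by 1.39 ± 0.15 in INT-767 mice (SD, n = 4). The cathepsin mean combines genes with negative (*Ctss*, *Ctsk*, *Ctsz*) and positive (*Ctsh*, *Ctsc*) fold changes. For *Ctsk*, *Ctss* and *Ctsz* alone the same difference was 0.23 ± 0.11 and -0.38 ± 0.15. It was above 0 in all 7 vehicle mice and below 0 in all 4 INT-767 mice. The narrower list was drawn up with results of these data known, and its separation carries no test.

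The 3 other peptidases were not called by edgeR with all mice, and their groups overlapped. *Tpp1*, a tripeptidyl peptidase, had a log2 fold change of -0.36 (SE 0.17, adjusted *p* = 0.167), and *Ctsa*, a carboxypeptidase that also protects beta-galactosidase and neuraminidase, had -0.24 (SE 0.18). *Ctsl*, cathepsin L, had 0.22 (SE 0.22), with INT-767 mouse 1 at 1446 CPM far above the highest vehicle mouse at 936 CPM.

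Lipid hydrolases gave 1 lower gene of 5 and a median of 0.16. *Galc*, on chromosome 12 (chr12:98202294-98259459, minus strand), removes galactose from galactosylceramide. Its level was 9.003 CPM in the lowest vehicle mouse, 11.7 in the median and 14.5 in the highest, and 9.53, 5.67, 7.46 and 6.52 CPM in INT-767 mice 1 to 4. Only INT-767 mouse 1 lay within the vehicle range. *Galc* had a log2 fold change of -0.70 (SE 0.19, adjusted *p* = 0.0356). *Lipa*, lysosomal acid lipase, hydrolyses cholesteryl esters and triglycerides that reach the lysosome. It was 378 CPM in the lowest vehicle mouse, 453 in the median and 623 in the highest, and 393, 723, 520.1 and 768 CPM in INT-767 mice 1 to 4, with 0.30 (SE 0.21, adjusted *p* = 0.312). The groups of *Lipa* overlapped, and INT-767 mice 2 and 4 were above every vehicle mouse. *Asah1* (acid ceramidase) at 0.16, *Smpd1* (acid sphingomyelinase) at 0.28 and *Ppt1* (a thioesterase that removes palmitate from proteins) at -0.38 were not called by edgeR with all mice. *Ppt1* was called lower by limma-voom with sample weights, and by edgeR without vehicle mouse 1.

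Glycosidases gave 1 lower and 1 higher gene of 10, with a median of -0.33. *Manba*, on chromosome 3 (chr3:135485611-135571404, plus strand), cleaves the last beta-linked mannose of N-glycans. It was 30.3 CPM in the lowest vehicle mouse, 35.3 in the median and 38.4 in the highest, and 20.1, 24.2, 27.5 and 23.4 CPM in INT-767 mice 1 to 4. No treated mouse reached the vehicle range, and the log2 fold change was -0.53 (SE 0.13, adjusted *p* = 0.0283).

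*Naglu*, on chromosome 11 (chr11:101070012-101077672, plus strand), takes N-acetylglucosamine from the ends of heparan sulfate chains. Its level was 25.9 CPM in the lowest vehicle mouse, 34.02 in the median and 37.4 in the highest, and 45.8, 50.02, 47.6 and 44.1 CPM in INT-767 mice 1 to 4. All treated mice were above all vehicle mice, with a narrow spread in both groups. *Naglu* rose by 0.53 on the log2 scale (SE 0.13, adjusted *p* = 0.0251, edgeR). With scaling by library size alone its log2 fold change was 0.32, above 0 but with an adjusted *p* of 0.133.

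The other glycosidases were not called in the main edgeR fit with all mice. *Gusb* was called lower by DESeq2, by limma-voom with sample weights, and by edgeR without vehicle mouse 1 or INT-767 mouse 1. edgeR also called it lower with library size alone, upper-quartile factors, thinning to the smallest library or the offset on GC content and length. Without vehicle mice 1 and 7 it called *Gusb* and *Man2b1* lower. *Gusb*, beta-glucuronidase, had -0.54 (SE 0.17, adjusted *p* = 0.0623), and *Man2b1*, the lysosomal alpha-mannosidase, -0.56 (SE 0.27, adjusted *p* = 0.166). *Gaa*, the acid alpha-glucosidase that degrades glycogen in lysosomes, was 36.3 CPM in the lowest vehicle mouse, 78.9 in the median and 89.8 in the highest, and 81.2, 48.1, 74.6 and 27.2 CPM in INT-767 mice 1 to 4. Its groups overlapped, with vehicle mouse 1 and INT-767 mouse 4 lowest, and the log2 fold change was -0.29 (SE 0.31, adjusted *p* = 0.507). *Gla* and *Glb1* (galactosidases) had -0.37 and -0.38. *Hexa*, *Fuca1* and *Neu1*, which remove hexosamine, fucose and sialic acid, had -0.13, 0.04 and 0.30. *Hexa* was the steadiest member, with its lowest and highest mouse only 1.23-fold apart.

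The sulfatases all had negative log2 fold changes (median -0.39), and 1 of 3 was called. *Arsa*, on chromosome 15 (chr15:89472476-89477425, minus strand), removes sulfate from sulfatide and so yields galactosylceramide, the lipid that galactosylceramidase then degrades. Its level was 80.8 CPM in the lowest vehicle mouse, 109 in the median and 158 in the highest, and 79.7, 58.9, 79.7 and 76.5 CPM in INT-767 mice 1 to 4. The groups did not overlap, but vehicle mouse 1 and INT-767 mouse 1 were almost level. *Arsa* had a log2 fold change of -0.63 (SE 0.18, adjusted *p* = 0.0462). Of its exon bases 18.8% overlap *C230037L18Rik* on the opposite strand, which was too low to test. *Arsb* and *Galns*, sulfatases of glycosaminoglycan breakdown, had -0.39 and -0.23.

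*Psap* and *Npc2* encode lysosomal proteins without catalytic activity of their own. *Psap*, on chromosome 10 (chr10:60277627-60302597, plus strand), gives rise to the saposins that the products of *Galc* and *Arsa* need. It was 738 CPM in the lowest vehicle mouse, 922 in the median and 1027 in the highest, and 692, 570.03, 713 and 663 CPM in INT-767 mice 1 to 4. Every treated mouse was below every vehicle mouse, and the adjusted *p* of 0.0521 (edgeR, log2 fold change -0.48, SE 0.14) just missed the threshold. DESeq2 and limma-voom, with and without sample weights, called it lower. *Npc2*, which hands cholesterol to the product of *Npc1*, had a log2 fold change of 0.04 (SE 0.15).

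None of the 6 membrane proteins was called by edgeR (1 was higher and none lower at an unadjusted *p* under 0.05), and their median log2 fold change was 0.02. DESeq2 and limma-voom called none of them either, and limma-voom with sample weights called 1, *Lamp2*, which edgeR also called higher without vehicle mouse 1. *Lamp1* was 699 CPM in the lowest vehicle mouse, 807 in the median and 1137 in the highest, and 808, 1032, 763 and 1236 CPM in INT-767 mice 1 to 4, with 0.15 (SE 0.18, adjusted *p* = 0.572). *Lamp2*, its X-linked relative that also serves chaperone-mediated autophagy, spread far more, from 393 to 1206 CPM in vehicle mice and with 623, 1366, 735 and 1687 in INT-767 mice 1 to 4. Its log2 fold change of 0.83 (SE 0.35, adjusted *p* = 0.125) was the largest positive value among the members. *Npc1*, the membrane exporter of lysosomal cholesterol, was 59.98 CPM in the lowest vehicle mouse, 135 in the median and 159 in the highest, and 98.8, 48.1, 116 and 29.1 CPM in INT-767 mice 1 to 4. Its groups overlapped, and the log2 fold change was -0.72 (SE 0.38, adjusted *p* = 0.199). *Scarb2*, the receptor that carries beta-glucocerebrosidase, had -0.07. *Mcoln1*, a lysosomal calcium channel, had -0.31, and *Cln3*, a membrane protein mutated in juvenile Batten disease, had 0.12.

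*Tfeb* was 8.37 CPM in the lowest vehicle mouse, 10.5 in the median and 12.5 in the highest, and 10.5, 18.1, 11.97 and 17.7 CPM in INT-767 mice 1 to 4. INT-767 mice 2 and 4 were above all vehicle mice, while mice 1 and 3 lay within their range, and the log2 fold change was 0.43 (SE 0.18, adjusted *p* = 0.127). Its mRNA level does not report the phosphorylation that sets where TFEB resides in the cell.

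A large part of the variation among mice was shared by both groups. Over all tested genes the first principal component held 58.7% of the variance. Vehicle mice 1 and 7 scored -41.2 and -19.0 on it and INT-767 mice 2 and 4 -73.2 and -90.3, while the other vehicle mice scored 18.2 to 62.0 and INT-767 mice 1 and 3 were at 1.54 and -7.06. *Lamp2* was high in these 4 mice, at 1206, 762, 1366 and 1687 CPM, above all 7 other mice. *Npc1* was lowest in the same mice, at 59.98, 68.7, 48.1 and 29.1 CPM, and so were *Gaa* and *Man2b1*. *Lipa* and *Ctsh* were highest in them. *Ctss* and *Ctsk* in vehicle mice 1 and 7 lay within the range of the other vehicle mice. *Manba*, *Arsa* and *Naglu* had their lowest vehicle levels in mice 1 and 7, and *Galc* in mouse 1. The cause of this axis was not tested.

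**Figure D4:**
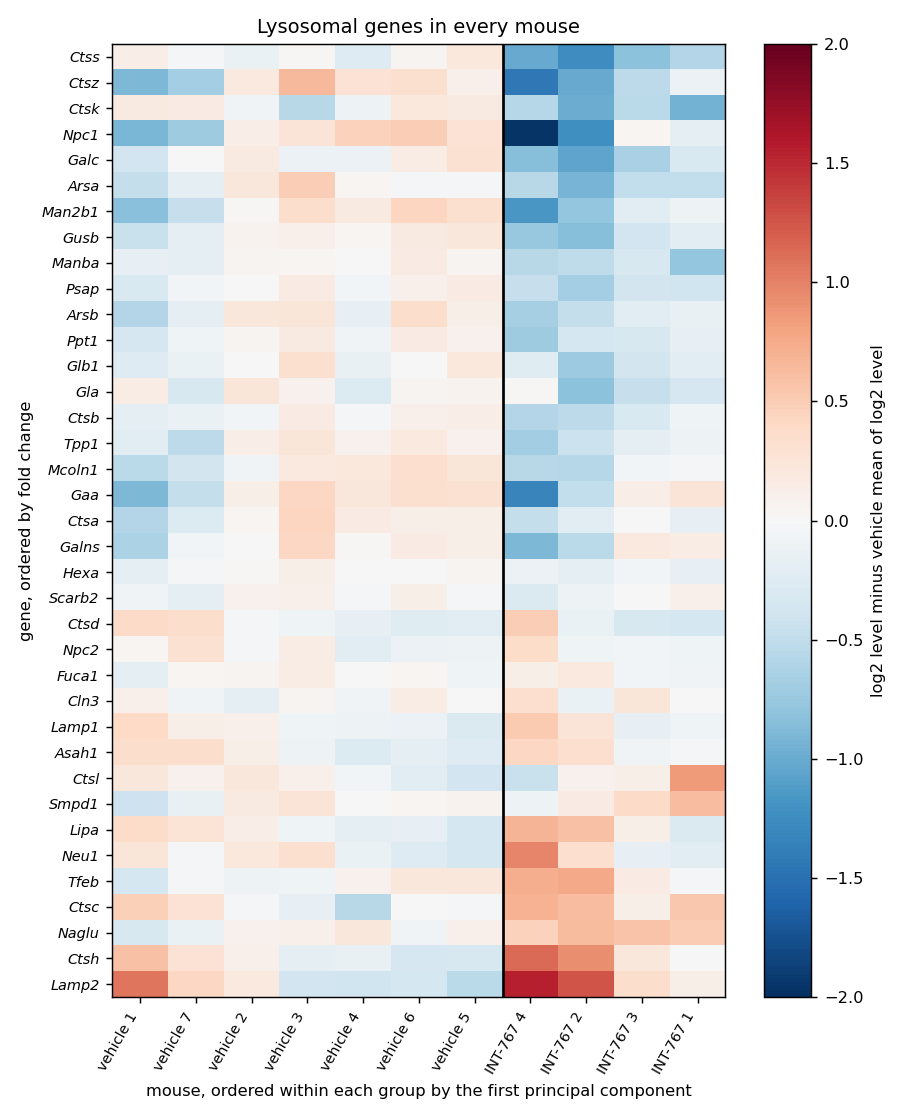
Each of the 37 lysosomal genes (rows, ordered by fold change) in each mouse (columns, ordered within each group by the first principal component), coloured by log2 CPM minus the vehicle mean of log2 CPM. Vehicle mice 1 and 7 and INT-767 mice 2 and 4 share high *Lamp2* and *Ctsh* and low *Npc1*, *Gaa* and *Man2b1*, while *Ctss* is low in all 4 INT-767 mice.

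The number of calls varied with the mice included. Without vehicle mice 1 and 7, left out after seeing the data, 14 members were lower and 4 higher, where 15.8% and 19.8% of all tested genes were. Added to the calls with all mice were *Ctsz*, *Tpp1*, *Ppt1*, *Gusb*, *Man2b1*, *Arsb*, *Psap*, *Npc1* and *Mcoln1* (lower) and *Ctsc*, *Ctsh* and *Lamp2* (higher). With INT-767 mice 2 and 4 left out as well 4 were lower (*Ctss*, *Ctsz*, *Manba* and *Arsa*) and *Naglu* was higher, where 6.12% and 5.96% of all tested genes were. With single mice left out, 1 to 9 members were lower and 0 to 4 higher, the most without vehicle mouse 1 and the fewest without vehicle mouse 6 or INT-767 mouse 2. Of all tested genes 9.86% were lower and 13.7% higher without vehicle mouse 1, 1.96% and 2.25% without vehicle mouse 6, and 0.767% and 1.14% without INT-767 mouse 2. *Ctss* was called without any 1 of the 11 mice (adjusted *p* 0.00703 to 0.0305, edgeR). *Ctsk* was not called without vehicle mouse 5 (adjusted *p* = 0.0536), vehicle mouse 6 (0.0586) or INT-767 mouse 2 (0.101). *Naglu* was not called without vehicle mouse 6 (0.06003) or INT-767 mouse 2 (0.115). *Manba* lost its call without vehicle mouse 3, 5 or 6 or INT-767 mouse 1, 2 or 4 (0.0500006 to 0.0946). *Galc* lost it without any of vehicle mice 2 to 6 or INT-767 mice 2 to 4 (0.0524 to 0.142). *Arsa* lost it without any mouse other than vehicle mouse 1 or 7 (0.0522 to 0.173). Their directions held in each of these fits.

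Fold changes over all genes fell with GC content and with transcript length (Spearman's rho -0.286 and -0.26 across genes, which are not independent). Among the 37 members the same rho was -0.00616 and -0.0614. When the trends of every library on both properties were taken out as an offset, *Ctss*, *Ctsk* and *Galc* remained lower and *Naglu* higher. *Manba* (adjusted *p* = 0.0689) and *Arsa* (0.0773) were then not called, while *Gusb* was called lower and *Tfeb* higher. The median log2 fold change then moved from -0.24 to -0.12 for the members, from -0.37 to -0.12 for the macrophage-rich cathepsins and from -0.29 to -0.13 for the broadly expressed hydrolases.

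Lysosomal genes beyond the members were taken from a separate list. Of 33 further enzymes and membrane genes, 4 were lower and 2 higher, where 4.68% and 5.04% of all tested genes were. Their median log2 fold change was -0.13. Lower were *Cd68* (-1.16, adjusted *p* = 0.00943), *Lgmn*, the asparaginyl protease legumain (-0.83, 0.0117), *Laptm5* of blood cells (-1.19, 0.0165) and the tetraspanin *Cd63* (-1.08, 0.0232). Higher were *Ctsf*, cathepsin F (0.65, 0.0381), and *Hgsnat* (0.41, 0.0439), an acetyltransferase of heparan sulfate breakdown. The call of *Ctsf* was lost in 16 of 26 alternatives, among them library size, upper-quartile factors and limma-voom. It held in only 3 of the fits without a single mouse (adjusted *p* up to 0.149, edgeR). *Lgmn* was 138 CPM in the lowest vehicle mouse, 159.8 in the median and 171 in the highest, and 85.5, 63.6, 85.04 and 119 CPM in INT-767 mice 1 to 4. Those groups did not overlap. The counts were 2 to 6 lower and 0 to 5 higher with single mice left out, fewest without INT-767 mouse 2 and most without vehicle mouse 1 (6 lower) and without vehicle mouse 1 or INT-767 mouse 1 (5 higher). Of all tested genes 0.767% were lower and 1.14% higher without INT-767 mouse 2, and 9.86% and 13.7% without vehicle mouse 1.

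Of 10 genes that sort hydrolases to the lysosome, 1 was lower and 1 higher (median -0.25), where 4.68% and 5.04% of all tested genes were. *Sort1*, the sorting receptor sortilin, had -1.21 (SE 0.26, adjusted *p* = 0.017), with 32.6 CPM in the lowest vehicle mouse, 37.5 in the median and 41.7 in the highest, and 15.6, 7.74, 27.2 and 13.2 CPM in INT-767 mice 1 to 4. The groups did not overlap. *Gnptg*, a subunit of the enzyme that makes the mannose 6-phosphate tag, had 0.85 (SE 0.20, adjusted *p* = 0.0235). *Gnptg* lost its call without vehicle mouse 5 or 6 or INT-767 mouse 2 or 4, and *Sort1* kept it without any single mouse, with 4 genes of the list lower without vehicle mouse 1. The receptor genes *M6pr* (0.13) and *Igf2r* (-0.70) were not called. None of 18 subunits of the proton pump that acidifies the lysosome was called by edgeR, with a median of -0.01. At an unadjusted *p* under 0.05 (edgeR) 1 was lower and none higher, where 15.6% and 17.4% of all tested genes were. DESeq2 called 1 of the 18 lower and limma-voom none. By edgeR 1 was lower and 1 higher without vehicle mouse 1, 1 was lower without INT-767 mouse 1 and 1 with the offset, and 1 was lower and 3 higher without both vehicle mice 1 and 7. Against 4.68% and 5.04% of all tested genes, 2 of 17 genes of the TFEB family and of autophagy were lower and none was higher (median -0.08). These were *Rragd* (-0.91, adjusted *p* = 0.0362), a GTPase that recruits mTORC1 to the lysosome, and *Wipi1* (-0.78, 0.0227), which acts in autophagosome formation. Both lost their call without INT-767 mouse 2, and *Rragd* also without vehicle mouse 4, without INT-767 mouse 1 or 3, and with the offset. With single mice left out 0 to 4 genes of this list were lower and 0 to 2 higher, the most without vehicle mouse 1. Without that mouse 9.86% of all tested genes were lower and 13.7% higher. *Tfe3* (-0.61) and *Mitf* (0.18), the relatives of *Tfeb*, were not called.

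Macrophage markers were examined next. Of 15 macrophage and Kupffer cell markers, 2 were lower and none was higher, where 4.68% and 5.04% of all tested genes were. The median log2 fold change of the list was -0.54, and 14 of the 15 were below 0, against 50.6% of all tested genes. At an unadjusted *p* under 0.05 (edgeR) 7 were lower and none was higher, where 15.6% and 17.4% of all tested genes were. *Csf1r*, the receptor for macrophage colony-stimulating factor, was 72.9 CPM in the lowest vehicle mouse, 93.8 in the median and 133 in the highest, and 44.4, 40.2, 43.8 and 53.7 CPM in INT-767 mice 1 to 4. Those groups were well apart, and *Csf1r* had -1.14 (SE 0.19, adjusted *p* = 0.00498). *Cd68*, a lysosomal glycoprotein of macrophages, was 21.3 CPM in the lowest vehicle mouse, 28.3 in the median and 35.2 in the highest, and 16.6, 8.02, 10.3 and 15.4 CPM in INT-767 mice 1 to 4. These groups did not overlap either.

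The remaining 13 markers were not called, and their log2 fold changes ran from -1.70 (*Marco*) to 0.53 (*Clec4f*). *Marco* was 17.04 CPM in vehicle mouse 6, 0.436 to 3.24 in the other vehicle mice and 0.422 to 2.47 in INT-767 mice. *Clec4f* was 35.3 to 74.4 CPM in vehicle mice and 33.5, 104.9, 19.99 and 149.6 in INT-767 mice 1 to 4. Single mice thus weigh heavily on both values. *Adgre1* (F4/80) had -0.63 (SE 0.20, adjusted *p* = 0.0619, edgeR), *Mertk* -0.93, *Cd14* -0.74, *Vsig4* -0.55, *C1qc* -0.54 and *Timd4* -0.53. Nearer to 0 were *Lyz2* at -0.40, *C1qb* at -0.24, *C1qa* at -0.22, *Mrc1* at -0.19 and *Cd5l* at -0.03. *Clec4f* encodes a lectin of Kupffer cells. The summed level of the list was 961 to 1503 CPM (median 1127) in vehicle mice and 675, 785, 659 and 1629 CPM in INT-767 mice 1 to 4, with *Lyz2* as its most abundant gene (23.7%). INT-767 mouse 4 had the highest sum of all mice and INT-767 mice 1 to 3 the lowest, while *Ctss* was low in all 4. *Timd4* was at 0 in vehicle mouse 1, and every other marker was detected in every mouse. All 7 markers of lipid-associated macrophages had negative fold changes (median -0.93), and *Cd9* was called (-0.76, adjusted *p* = 0.0154, edgeR). At an unadjusted *p* under 0.05 (edgeR) 6 of the 7 were lower, where 15.6% of all tested genes were. The sum of this list was 1013 to 2186 CPM (median 1152) in vehicle mice and 520.2, 633, 902 and 1541 CPM in INT-767 mice 1 to 4. *Spp1* made up 76.1% of it. With the 4 mice at the low end of the first component left out, 9 of the 15 macrophage markers were lower, where 6.12% of all tested genes were. With single mice left out 2 to 6 were lower, the most without INT-767 mouse 4. Of the lipid-associated markers 0 to 3 were lower in these fits, the fewest when INT-767 mouse 2 was left out and the most when INT-767 mouse 1 or 4 was. The part of macrophage content in the changes of *Ctss*, *Ctsk*, *Galc*, *Manba* and *Arsa* was not tested.

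**Figure D5:**
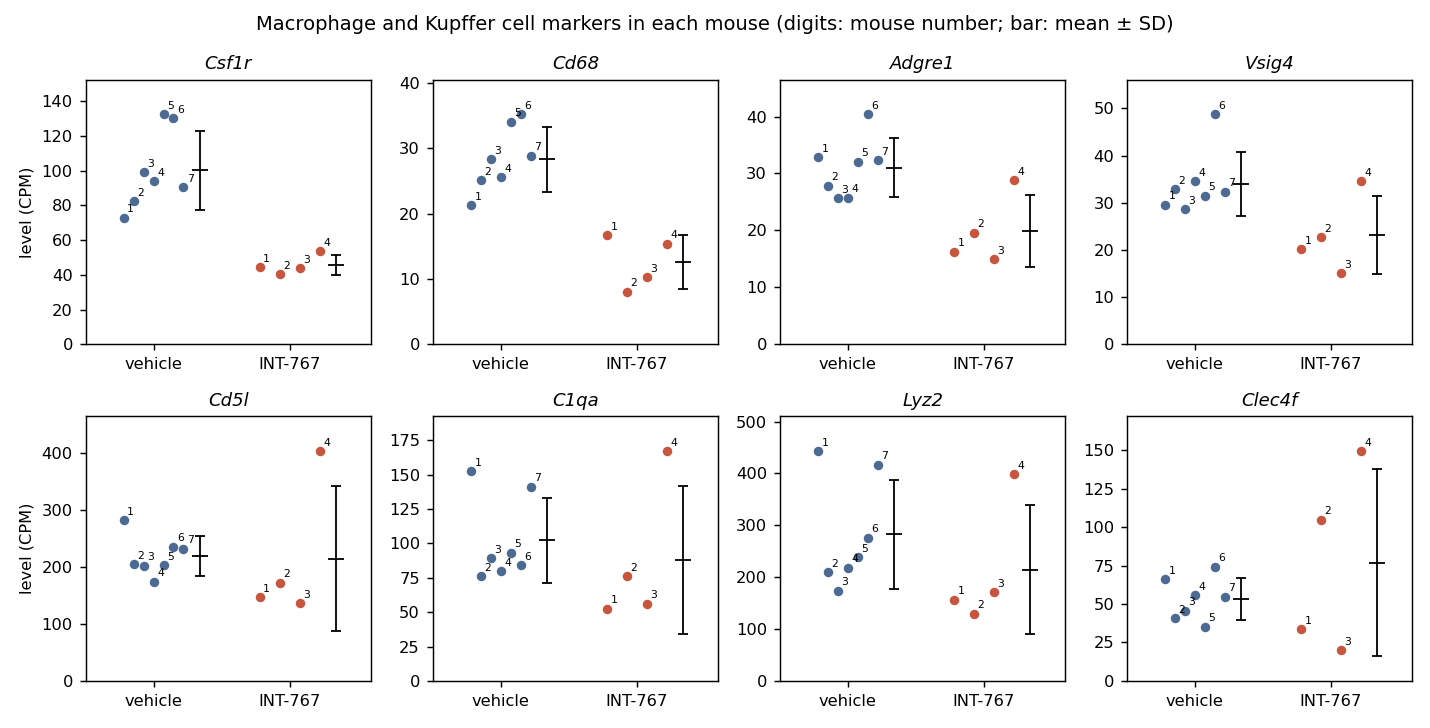
Level in CPM of 8 macrophage and Kupffer cell markers in each of 7 vehicle (blue) and 4 INT-767 (red) mice, on axes that start at 0, with mouse numbers and the mean ± SD. *Csf1r* and *Cd68* are lower in all 4 INT-767 mice, whereas *Cd5l*, *C1qa* and *Clec4f* are highest in INT-767 mouse 4.

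Other cell types were examined in the same way. Of 8 hepatocyte markers none was called by edgeR (median 0.55), while DESeq2 called 5 higher. At an unadjusted *p* under 0.05 (edgeR) 5 were higher, where 17.4% of all tested genes were. Without single mice edgeR called 0 to 3 of the 8 higher, the most without INT-767 mouse 4, and with the offset 3. Their sum was 52611 to 69524 CPM (median 58166) in vehicle mice and 99668, 100293, 82904 and 55854 CPM in INT-767 mice 1 to 4, of which *Alb* made up 74.1%. Of 8 stellate cell and myofibroblast markers 3 were lower (median -1.09), where 4.68% of all tested genes were. The 3 were *Col1a1* (-2.96), *Col1a2* (-2.35) and *Pdgfrb* (-1.31). The sum of the list was 341 to 1275 CPM (median 671) in vehicle mice and 219, 104, 235 and 318 CPM in INT-767 mice 1 to 4. *Col3a1* was most abundant (42.9%). With single mice left out 0 to 4 of the 8 were lower, with 0 without vehicle mouse 5 or 6 or INT-767 mouse 2 and 1 without vehicle mouse 3 or 4. Of all tested genes 1.96% were lower without vehicle mouse 6 and 0.767% without INT-767 mouse 2. *Col1a1*, *Col1a2* and *Pdgfrb* also all lost their calls without INT-767 mouse 4. In the main fit edgeR called none of 5 endothelial (median -0.29), 4 cholangiocyte (-0.62), 3 tested monocyte and neutrophil (0.31) or 4 tested B and T cell markers (-0.61). At an unadjusted *p* under 0.05 (edgeR), 2, 3, 0 and 1 of them were lower, where 15.6% of all tested genes were. DESeq2 called 2 cholangiocyte markers lower and none of the others. With single mice left out edgeR called at most 1 endothelial and 1 cholangiocyte marker lower, and none of the others. Without vehicle mice 1 and 7 it called 2 endothelial, 1 cholangiocyte and 1 B and T cell marker lower. With INT-767 mice 2 and 4 left out as well, 1 endothelial and 1 monocyte and neutrophil marker were lower. Scaling by library size gave 1 cholangiocyte marker lower. Their part in the lysosomal changes was not tested.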

How the data were processed

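Stranded mRNA libraries of liver were sequenced by the authors on the Illumina NextSeq platform, and reads were aligned with STAR to GRCm38 (the submitters' processing notes name STAR 2.4.0 and mm10). The authors deposited raw read counts per gene, whole numbers without normalization, for 46603 genes in 11 mice, and all 11 columns were matched to their mouse through the labels, with 0 columns of other samples. Which program counted the reads, and with which strand setting, was not given in the sources used here. Of these genes, 46005 were matched to GENCODE M21, which gave positions, overlaps, GC content and transcript lengths. The paper states that mice were housed singly after the biopsy. Nothing in the labels says how the mice were batched, so that an effect of batch could not be told apart from treatment. The *p*-values set the difference between groups against the spread of mice within them.

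Counts were filtered with filterByExpr (minimum count 10, minimum total 15) and tested in R 4.3.3 with edgeR 4.0.16 (TMM factors, glmQLFit with robust estimation, glmQLFTest, treatment as the only term). The factors ranged from 0.843 to 1.14. Adjusted *p* are Benjamini-Hochberg values over 13880 genes, with a threshold of 0.05. Standard errors follow from the fold change and the F statistic. Alternatives used DESeq2 1.42.0, limma 3.58.1 and the settings named under the processing dependence, including an offset from lowess trends (span 0.3, 13835 genes). In simulated counts of this design, where 200 of 13880 genes had a log2 change of 2, edgeR found 96% of these and called 5 others. That change is larger than the change of any member. The simulated mice also lacked the axis of variation that the real mice share. The simulation thus does not show how many changes of the size seen here were missed. Motifs were matched in RefSeq windows (GRCm38.p6), and the motifs for FXR and PU.1 were added after seeing the data. Figures were drawn with matplotlib 3.10.9.

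The members, lists, roles and named genes were chosen with earlier results of these data known. Named were all members, with the value in every INT-767 mouse and the lowest, median and highest vehicle value for called members and for *Ctsd*, *Lipa*, *Gaa*, *Lamp1*, *Npc1* and *Tfeb*, and up to 5 called genes of each other list by smallest *p*. *Psap*, *Lamp2*, the uncalled genes of the other lists and the values per mouse of *Lgmn*, *Sort1*, *Csf1r* and *Cd68* were picked for description after their values were seen. No test was made over a list.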

Additional observations from a re-analysis of the deposited data

Results flagged for a closer look

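In 2 of 74 groups of mice over the 37 members, 1 mouse stood apart from its group by a gap larger than Dixon's 95% limit, which chance alone would exceed in about 1 of 20 groups. *Arsa* was lowest in INT-767 mouse 2 at 58.9 CPM, where the nearest of the other INT-767 mice had 76.5. *Npc2* was highest in INT-767 mouse 4 at 144 CPM, where the nearest had 107.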

How the results depend on the processing

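With the mouse number of the labels as a block, edgeR called 0 genes higher and 0 lower, and 0 members lower and 0 higher, although 1347 genes had an unadjusted *p* under 0.05. Only 4 numbers occur in both groups, so that only these mice inform the treatment term of that fit. The numbers were not taken as pairs, because the labels do not describe them as pairs. The correlations of same-numbered mice were -0.69, 0.215, 0.148 and -0.482, and no INT-767 mouse correlated best with its own number. The offset on GC content and length together with the block also gave 0 and 0 genes and 0 and 0 members.

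Calls over all genes and over the members moved as follows. Library size alone gave 331 genes higher and 1026 lower, with 0 members higher. DESeq2 gave 1443 and 1368, with 8 members lower. limma-voom with sample weights gave 1658 and 1221, with 10 members lower and 2 higher. A threshold of 0.01 gave 158 and 87, with 1 member lower and 0 higher. Without vehicle mice 1 and 7 there were 2701 and 2160, with 14 members lower and 4 higher. The offset gave 1098 genes higher, with 2 members higher. Without a filter beyond 1 count 1 member was lower and 0 higher, and thinning to the smallest library left 0 higher. Leaving out single mice gave 164 to 1906 genes higher and 110 to 1370 lower, and 1 to 9 members lower and 0 to 4 higher.

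The median log2 fold change of the members was -0.44 by library size, -0.39 without vehicle mice 1 and 7, -0.12 with the offset and -0.12 with offset and block, and -0.37 to -0.16 without single mice. That of the macrophage-rich cathepsins was -0.57 by library size, -0.44 by upper-quartile factors, -0.25 without the 4 mice, -0.12 with the offset and -0.13 with offset and block, and -0.47 to -0.30 without single mice. That of *Ctsk*, *Ctss* and *Ctsz* was -0.98 by library size and -1.01 to -0.71 without single mice. That of the broadly expressed hydrolases was -0.48 by library size, -0.13 with the offset and -0.12 with offset and block, and -0.38 to -0.17 without single mice.

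Among the 26 alternatives, 11 members changed sign in at least 1. None of the 11 was called by edgeR, and their log2 fold changes were -0.23 to 0.43, the highest that of *Tfeb*, which was called higher with the offset. By library size the log2 fold change was -0.062 for *Asah1*, -0.17 for *Fuca1*, -0.18 for *Npc2*, -0.072 for *Lamp1* and -0.091 for *Cln3*. By upper-quartile factors it was -0.037 for *Fuca1* and -0.044 for *Npc2*, with at least 10 counts in every mouse -0.030 and -0.033 for the same genes, and with sample weights -0.012 for *Fuca1*. With the offset it was -0.025 for *Asah1* and 0.090 for *Scarb2*, and with offset and block -0.030 and 0.045. Without vehicle mice 1 and 7 it was 0.11 for *Ctsd*. Without the 4 mice it was -0.16 for *Neu1*, -0.095 for *Fuca1*, 0.033 for *Galns*, -0.00177 for *Npc2*, -0.023 for *Lamp1* and -0.00611 for *Tfeb*. Without single mice it ran from -0.29 to 0.039 for *Ctsd*, -0.071 to 0.38 for *Ctsl*, -0.020 to 0.45 for *Neu1*, -0.023 to 0.087 for *Fuca1*, -0.091 to 0.092 for *Npc2* and -0.00692 to 0.25 for *Lamp1*. The cause of these changes was not tested. No alternative reversed the sign of *Ctss*, *Ctsk*, *Galc*, *Manba*, *Arsa* or *Naglu*. Every member had at least 35 counts in every mouse, and thinning to the smallest library ended the call of *Naglu*.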

Other observations

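Heparan sulfate is degraded by a chain of lysosomal enzymes, and *Naglu* (0.53) and *Hgsnat* (0.41), called genes of that chain, were both higher with INT-767. Both were in 4 of 4 treated mice above all 7 vehicle mice, a separation seen in 3.87% of all tested genes. *Ids*, *Idua*, *Sgsh* and *Gusb*, which act in the same chain, were not called in the main edgeR fit, at 0.29, -0.67, -1.07 and -0.54. *Gusb* was called lower, opposite to *Naglu* and *Hgsnat*, by DESeq2, limma-voom with sample weights and edgeR with the offset on GC content and length. The call of *Hgsnat* was lost in 17 of 26 alternatives, among them library size, upper-quartile factors, thinning, the replicate block (adjusted *p* = 0.563, edgeR) and 8 of the 11 fits without a single mouse (adjusted *p* up to 0.171). This grouping was made after the values were seen. Among the genes that overlap a member on the opposite strand, *Pltp* beside *Ctsa* had -0.70, *Grtp1* beside *Lamp1* 0.68 and *Apobr* beside *Cln3* -1.17, none of them called.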
